A study of Mus musculus with 16 samples.

Results

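The signal recognition particle was followed through 8 genes, which were 7SL RNA (Rn7s1), 6 genes for proteins of the particle (Srp9, Srp14, Srp19, Srp54a, Srp68 and Srp72) and Srprb, a subunit of its receptor. These 8 were taken by gene symbol, or for Rn7s1 by its identifier where no symbol was given, from the 16612 genes listed over both tables of normalized counts, and all 8 were present in both tables and had a mean above the minimum of 10 used for testing. RNA was sequenced from bone marrow of leukemia-bearing mice, in 16 libraries that fall into 4 groups of 4. Hosts were WT or IL-6 KO mice (C57BL/6J, 6 to 8 weeks old), left untreated and sacrificed 8 days after tail vein injection of 500000 BCR-ABL+, Arf-/- B-ALL cells marked with mCherry. The leukemia cells were the same line in both hosts, so that the hosts alone carried the IL-6 deletion. Tumor denotes the sorted mCherry+ cells, and stroma the live mCherry- cells left after lysis of red cells, so that stroma here holds hematopoietic cells as well as stroma in the strict sense. Whether same-numbered tumor and stroma libraries came from the same mouse is not given in the labels.

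The signal recognition particle is a ribonucleoprotein that binds the signal peptide of a secretory or membrane protein as it leaves the ribosome, slows its translation and carries the ribosome to a receptor on the endoplasmic reticulum. 7SL RNA, a short RNA made by RNA polymerase III, is the scaffold on which the proteins assemble. Secretory cells depend on this route, and precursor and mature B cells use it for the chains of their antigen receptors.

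The copies of 7SL RNA are described first because they decide which reads a count can hold. Rn7s1 (ENSMUSG00000099021) is a single exon of 300 nucleotides on chromosome 12, annotated as a miscellaneous RNA in GENCODE vM21. The transcript of a second copy, Rn7s2, is identical to it over all 300 nucleotides, and Rn7s2 was not analysed here, so that the row of Rn7s1 cannot be told apart from Rn7s2. Another copy, Rn7s6, on chromosome 6, is listed in both tables. Over bases 1 to 214 of Rn7s1, counted from its 5′ end, 211 were identical in Rn7s6, and the remaining 86 bases of Rn7s1 and 77 bases of Rn7s6 were not alike. Many reads of 75 nucleotides from the shared stretch therefore fit either copy, and the last part of each tells them apart.

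In leukemia cells, 7SL RNA and the mRNAs of its proteins were set side by side. Rn7s1 was higher in every IL-6 KO tumor library than in every WT tumor library. The mean mRNA level over the 7 protein genes, some higher and some lower, stood at the same level in both hosts. That level mean depended on the processing. With GC and length corrected for, the tumor log2 fold changes of the 7 ran from -0.20 (Srp19) to 0.41 (Srp68), most of them above 0. In stroma, Rn7s1 was above all WT libraries in 3 of the 4 IL-6 KO libraries, and the remaining one lay inside the WT range. The members had been chosen with values of this contrast in view, so that their own differences are given as a description. The number of them that passed limma is set once beside that of all genes, and nothing is read from it.

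In tumor, the normalized count of Rn7s1 was 1832288, 1329143, 1345390 and 1592468 in WT libraries 1 to 4 and 2950748, 3219920, 2646200 and 2689271 in IL-6 KO libraries 1 to 4. The groups did not overlap, as for 13.6% of all genes tested in tumor with IL-6 KO higher, from which nothing is read since Rn7s1 was chosen on this contrast. The means, given here and below ± SD over the 4 libraries of a group, were 1524822 ± 237766 and 2876535 ± 265545, a ratio of 1.89, and the log2 fold change on the log2(normalized count + 1) scale was 0.92 (standard error 0.12). In stroma, Rn7s1 was at 1689504, 2206773, 5998553 and 8746973 in WT libraries 1 to 4 and at 34766678, 30258018, 34923464 and 3707689 in IL-6 KO libraries 1 to 4. Libraries 1, 2 and 3 of IL-6 KO stroma were above every WT library, and library 4 was below 2 of the 4. Within WT stroma the highest value was 5.18 times the lowest, against 1.38 times in WT tumor. The log2 fold change in stroma was 2.36 (standard error 1.39), and 3.15 without IL-6 KO stroma library 4. Quantile normalization, which keeps only the ranks within a library, gave 0 in tumor and 0.45 in stroma, since Rn7s1 ranked 2 or 3 among all genes in every tumor library of both hosts.

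**Figure D1:**
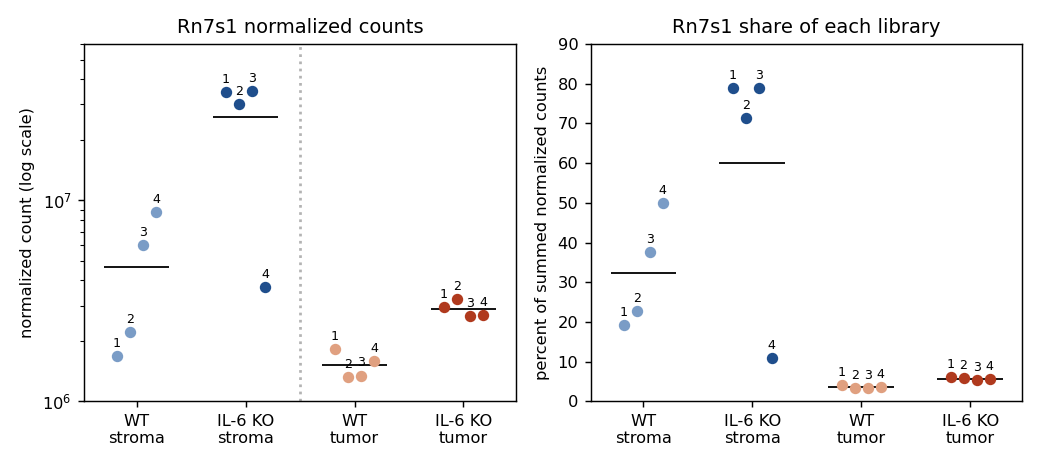
Rn7s1 in each library, as the normalized count on a log axis (left) and as the percent of the library's summed normalized counts (right), with each point labelled by its replicate number and a line at each group mean. Each compartment has its own normalization, so that the left panel is read within a compartment, and IL-6 KO stroma 4, at 3707689 and 10.9%, lies apart from the other 3 libraries of its group.

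Stroma and tumor counts carry separate normalizations and cannot be set against each other, but shares and ratios within a library can. Within each compartment, the sum of normalized counts was itself higher in every IL-6 KO than in every WT library. In stroma it was 8805689 to 17470735 in WT and 33973016 to 44191950 in IL-6 KO libraries. In tumor it was 38817792 to 44552085 and 47267047 to 55592959. The counts of Rn7s1 above thus belong to libraries with unlike sums, and Rn7s1 is itself part of these sums. In stroma the mean sums differed by 28183763, of which Rn7s1 made up 21253512 and the ribosomal RNA gene CT010467.1 made up 5224524. In tumor they differed by 8640635, of which Rn7s1 made up 1351712. The cause was not tested. The share of a library's summed normalized counts held by Rn7s1 was 4.11%, 3.40%, 3.47% and 3.72% in WT tumor and 6.24%, 5.79%, 5.40% and 5.61% in IL-6 KO tumor, a mean difference of 2.09 percentage points. In stroma the share was 19.2%, 22.8%, 37.6% and 50.1% in WT and 78.8%, 71.5%, 79.0% and 10.9% in IL-6 KO libraries. A single short RNA thus made up a larger part of every stroma library than of any tumor library, and it was the largest single entry in 3 of the 4 IL-6 KO and 2 of the 4 WT stroma libraries. In IL-6 KO stroma 4, CT010467.1 held 61.5%, against at most 0.0387% in any other stroma library. Fewer cells of a type and less RNA per cell cannot be told apart in these bulk samples, and the part that ribosomal RNA depletion or RNA quality played in the shares was not tested.

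To set 7SL RNA beside its partners, the mean log2(normalized count + 1) of the 7 protein genes was subtracted from that of Rn7s1 in each library. This log2 ratio was 9.76, 9.22, 9.21 and 9.49 in WT tumor and 10.43, 10.46, 10.25 and 10.24 in IL-6 KO tumor. Every IL-6 KO tumor library was above every WT tumor library, by 0.92 on average. The mean log2 value of the 7 protein genes was 11.11 ± 0.04 in WT tumor and 11.11 ± 0.04 in IL-6 KO tumor. This mean covers genes on both sides, from Srp19 (log2 fold change -0.37) to Srp68 (0.49), and does not show that each was alike in both hosts. In stroma the log2 ratio was 14.47, 14.50, 15.79 and 16.91 in WT and 19.50, 18.69, 19.89 and 15.80 in IL-6 KO libraries. IL-6 KO stroma 4, whose share of Rn7s1 was the lowest of all stroma libraries, was here in the middle of the WT range. The mean of the protein genes was lower in IL-6 KO stroma (5.73 ± 0.45) than in WT stroma (6.42 ± 0.28), with overlapping libraries. Most of this difference came from Srp54a (log2 fold change -2.21) and Srprb (-2.18). The other protein genes ran from -0.51 (Srp9) to 0.42 (Srp14). Summed with Srp54b and Srp54c, Srp54a was at -0.02, and Srprb was at -1.10 without IL-6 KO stroma 3. The mean thus does not show that the protein genes were lower as a group. Every stroma library had a higher ratio of 7SL RNA to protein mRNA than every tumor library.

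**Figure D2:**
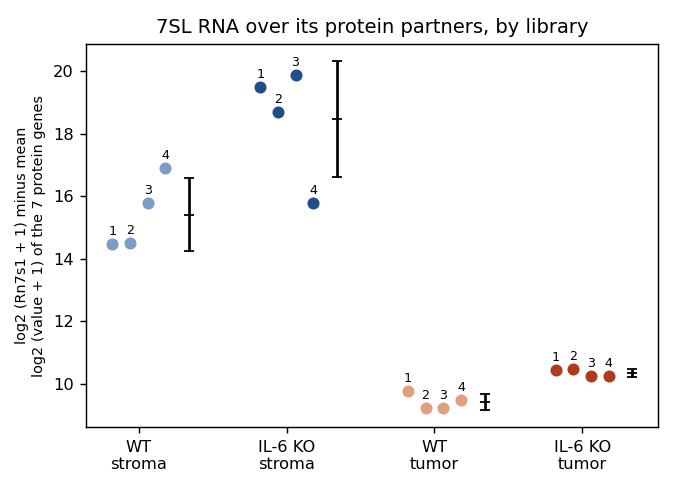
Log2 ratio of Rn7s1 to the mean of the 7 protein genes in each of the 16 libraries, labelled by replicate number, with the mean and SD of each group beside the points. The 4 groups are in the order WT tumor, IL-6 KO tumor, WT stroma and IL-6 KO stroma from the lowest mean (9.42) to the highest (18.47), and IL-6 KO stroma 4 (15.80) lies among the WT stroma libraries.

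Rn7s6, a more distant copy, held little of the signal and did not follow Rn7s1, as far as reads were assigned to the right copy. Its normalized count in tumor was between 45.5 and 171 in WT and between 86.7 and 128 in IL-6 KO libraries, and was at most 0.0129% of Rn7s1 in the same library. In stroma it was 104379 in WT library 1, which was 6.18% of Rn7s1 there, and between 198 and 3567 in the other 7 libraries. With Rn7s6 added to Rn7s1, the mean difference in share became 27.3 percentage points in stroma and 2.09 in tumor.

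The Alu domain of the particle, which pauses translation, is bound by SRP9 and SRP14 as a heterodimer. Srp9 in tumor was at 1985, 2086, 1927 and 2025 in WT and 1660, 2058, 1702 and 1589 in IL-6 KO libraries, and only IL-6 KO tumor 2 fell within the WT range. Its log2 fold change was -0.20 (standard error 0.09). Srp14 in tumor was at 1805, 1883, 1790 and 1884 in WT and 1832, 2065, 1797 and 1821 in IL-6 KO libraries, with overlapping groups and a log2 fold change of 0.03 (standard error 0.07). The mRNAs of Srp9 and Srp14 did not keep one ratio between hosts in tumor, and the proteins were not measured. The log2 ratio of Srp9 to Srp14, per kilobase of transcript, was between -1.28 and -1.23 in WT tumor and between -1.58 and -1.39 in IL-6 KO tumor, with no overlap. Both genes were chosen on this contrast, so that the ratio is a description. How often the ratios of other gene pairs come apart was not tested. In stroma both were low, at 104 to 185 (WT) and 77.0 to 175 (IL-6 KO) for Srp9 and at 13.2 to 74.5 (WT) and 37.1 to 55.6 (IL-6 KO) for Srp14, and both overlapped between hosts.

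The S domain of 7SL RNA carries SRP19, which must bind before SRP54 can, and the SRP68 and SRP72 heterodimer. Srp19 in tumor was at 752, 922, 915 and 796 in WT and 576, 804, 621 and 632 in IL-6 KO libraries. All but IL-6 KO tumor 2 were below every WT library, and the log2 fold change was -0.37 (standard error 0.12). Srp68 in tumor lay on the other side, at 3771, 3509, 4321 and 4504 in WT and 5806, 5742, 4976 and 6071 in IL-6 KO libraries. The groups did not overlap, and the log2 fold change was 0.49 (standard error 0.10), the largest among the 7 protein genes in tumor. Srp72 differed little, at 3312, 3761, 3522 and 3585 in WT and 3611, 3634, 3716 and 3712 in IL-6 KO tumor libraries, with a log2 fold change of 0.05 (standard error 0.06). The log2 ratio of Srp68 to Srp72 per kilobase was accordingly between -0.57 and -0.14 in WT tumor and between -0.05 and 0.24 in IL-6 KO tumor. Srp72 lies on chromosome 5 with Il6, 47.0 Mb away.

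In stroma these 3 genes overlapped between hosts. Srp68 was at 141 to 185 in WT and 130 to 236 in IL-6 KO libraries, with a log2 fold change of 0.10 (standard error 0.37). Srp72 was at 92.5 to 350 in WT and 149 to 413 in IL-6 KO libraries, with a log2 fold change of 0.03 (standard error 0.51). Srp19 was near the lower end of what the tables hold, at 3.24, 44.2, 13.7 and 10.6 in WT and 0.901, 19.0, 14.4 and 13.3 in IL-6 KO libraries, and its log2 fold change of -0.49 (standard error 1.11) was smaller than its error. The spread between stroma libraries was far wider than between tumor libraries for most genes, with a median residual SD of 0.86 against 0.21 on the log2 scale over all genes tested.

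**Figure D3:**
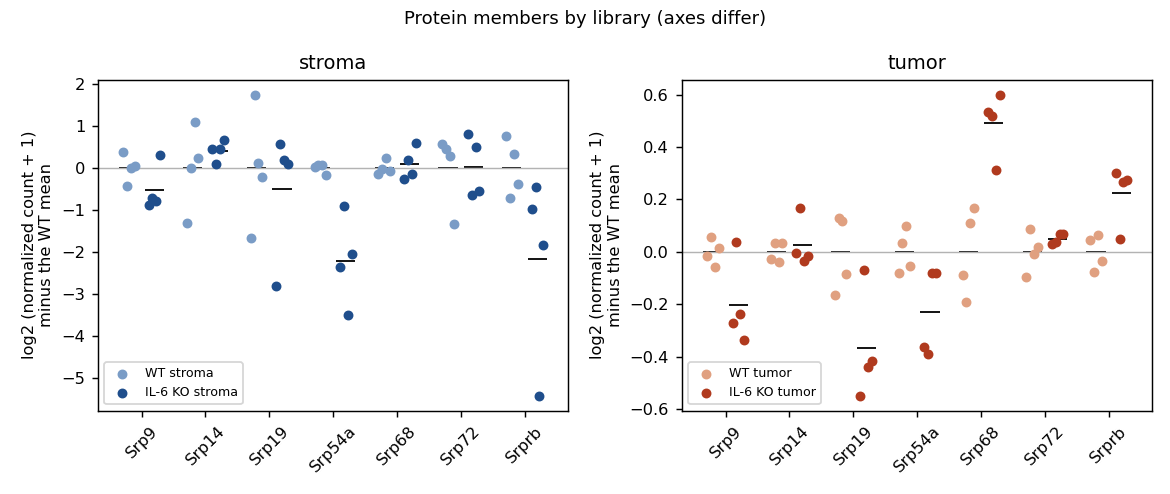
The 7 protein members in each library of stroma (left) and tumor (right), as log2(normalized count + 1) minus the mean of the WT libraries of that compartment, with a line at each group mean and different vertical scales. In tumor, Srp68 is above and Srp54a below the WT libraries in every IL-6 KO library, and in stroma only Srp54a is apart between hosts.

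SRP54 is the GTPase that holds the signal peptide and docks with the receptor. Mouse carries 3 nearly identical genes for it on chromosome 12, Srp54a (chr12:55080262-55115367), Srp54b (chr12:55155104-55189573) and Srp54c (chr12:55230168-55263836), all on the plus strand of GRCm38. The longest transcripts of Srp54a and Srp54b were 99.6% identical over 3644 nucleotides and those of Srp54b and Srp54c 99.7% over 3646, so that reads can be split between them and each gene's own count is uncertain. Srp54a was lower in every IL-6 KO library than in every WT library of the same compartment. In stroma it was at 315, 327, 325 and 277 in WT and 59.2, 164, 26.4 and 73.8 in IL-6 KO libraries, with a log2 fold change of -2.21 (standard error 0.51). In tumor it was at 2765, 2998, 3135 and 2818 in WT and 2272, 2234, 2764 and 2763 in IL-6 KO libraries. The log2 fold change was -0.23 (standard error 0.09), and the highest IL-6 KO library (2763.9) came within 2 normalized counts of the lowest WT library (2765.46). With GC and length corrected for, the direction in tumor turned (0.08, standard error 0.08).

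Srp54b was higher in stroma where Srp54a was lower. It was listed at 0 in WT stroma 1, 2 and 4 and at 97.8 in WT stroma 3, and was at 113, 482, 755 and 193 in IL-6 KO stroma. Srp54c was at 133, 201, 114 and 190 in WT stroma and listed at 0 in IL-6 KO stroma 1 and 3, beside 151 and 260 in libraries 2 and 4. The sum over the 3 copies was 448, 528, 537 and 467 in WT libraries and 172, 797, 781 and 526 in IL-6 KO libraries of stroma, so that the groups overlapped, and its log2 fold change was -0.02 (standard error 0.52). Srp54a held 59.3% to 70.2% of the sum in WT stroma and 3.38% to 34.3% in IL-6 KO stroma. In tumor the summed copies were at 5296, 6026, 5678 and 5216 in WT and 4760, 4730, 5170 and 5223 in IL-6 KO libraries, with an overlap at the margin, and Srp54a held 49.7% to 55.2% in WT and 47.2% to 53.5% in IL-6 KO libraries. In tumor the split was thus alike in both hosts, and in stroma the difference in Srp54a came with an opposite one in Srp54b. Whether expression or the assignment of reads among the copies differed was not tested.

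**Figure D4:**
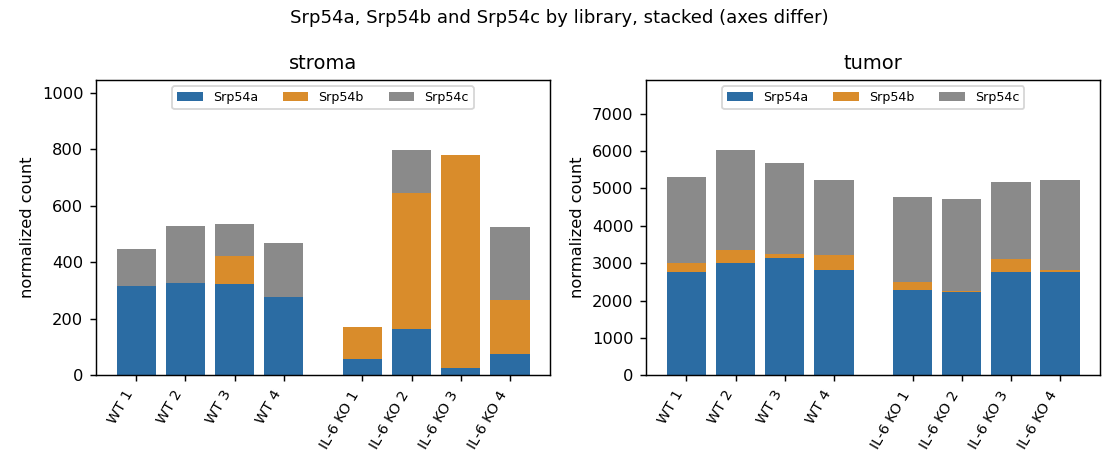
Normalized counts of Srp54a, Srp54b and Srp54c, stacked for each library of stroma (left) and tumor (right), with different vertical scales. In stroma Srp54b makes up none to 18.2% of the bar in WT and 36.6% to 96.6% in IL-6 KO libraries, while the height of the bars overlaps between hosts.

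The receptor on the endoplasmic reticulum consists of the membrane-spanning SRPRB and the GTPase subunit encoded by Srpr, which is not among the 8 members. Srprb in tumor was at 2021, 1855, 2047 and 1907 in WT and 2411, 2024, 2356 and 2366 in IL-6 KO libraries. All but IL-6 KO tumor 2 were above every WT library, and the log2 fold change was 0.22 (standard error 0.08). In stroma Srprb was low, at 72.2, 25.2, 53.6 and 32 in WT and 20.7, 30.4, 0 and 11.0 in IL-6 KO libraries. Its log2 fold change of -2.18 (standard error 1.05) rested in large part on IL-6 KO stroma 3, where it was listed at 0, and was -1.10 without that library. Srpr was at 2904 to 3104 in WT and 2847 to 3239 in IL-6 KO tumor, with a log2 difference of 0.03 ± 0.07 (SE, limma adjusted p = 0.784), and at 121 to 434 in WT and 65.9 to 296 in IL-6 KO stroma. Per kilobase, the log2 ratio of Srpr to Srprb was between 1.33 and 1.54 in WT tumor and between 1.14 and 1.32 in IL-6 KO tumor.

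Per kilobase of the mean annotated transcript length, 7SL RNA stood far above every protein gene in all 4 groups. In WT tumor its level was 5082741 ± 792552 per kilobase, 1859 times that of Srp14, the next in order. The order then ran from Srp14 (2735 ± 74.1 per kilobase) through Srp72 (2599 ± 136), Srp68 (2136 ± 247), Srp54a (2063 ± 119), Srp9 (1144 ± 38.2) and Srprb (909 ± 42.4) to Srp19 (700 ± 70.7). Srp54a stands here without its near copies. Its normalized count in WT tumor was 2929 ± 170, against 5554 ± 374 for the sum with Srp54b and Srp54c. Which of the annotated transcripts were expressed was not tested, so that the lengths and the order are approximate. The libraries of Srp14 and Srp72 overlapped, as did those of Srp68 and Srp54a, and the other neighbours did not. In IL-6 KO tumor Srp68 came second (2997 ± 250 per kilobase) and overlapped with Srp14 (2792 ± 186), which in turn overlapped with Srp72 (2689 ± 39.3). Srp54a (1766 ± 208), Srprb (1063 ± 82.8), Srp9 (999 ± 119) and Srp19 (544 ± 82.8) followed, and of these only Srprb and Srp9 overlapped. In stroma nearly all neighbours overlapped. The order below Rn7s1 in WT stroma was Srp54a, Srp72, Srp68, Srp9, Srp14, Srprb and Srp19, from 219 ± 16.4 to 14.8 ± 14.9 per kilobase, and no neighbours among the protein genes were apart. In IL-6 KO stroma it was Srp72, Srp68, Srp14, Srp9, Srp54a, Srp19 and Srprb, from 193 ± 95.2 to 7.21 ± 6.05 per kilobase, with a gap only between Srp54a and Srp19. Srp19 was thus the lowest or next to lowest member in every group.

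By limma with Benjamini-Hochberg adjustment over all genes, 0 of the 8 members in stroma and 2 of the 8 in tumor, Rn7s1 and Srp68, passed an adjusted p of 0.05. Over all genes tested, 0.0082% of 12202 passed in stroma and 19.8% of 14493 in tumor (10.6% with IL-6 KO higher, 9.16% with WT higher). The groups were apart with IL-6 KO higher for none of the members in stroma and for 2 in tumor, against 2.54% and 13.6% of all genes, and with IL-6 KO lower for 1 member in each compartment, against 3.25% and 12% of all genes. At an unadjusted p under 0.05, 1 of the 8 members passed in stroma and 6 in tumor, beside 9.15% and 35.1% of all genes. Since the members were chosen on this contrast, nothing is read from these counts. The median log2 fold change was -0.23 in stroma and 0.04 in tumor over the members, and -0.01 in both over all genes. With GC and length corrected for in every library, the tumor log2 fold changes of Srp9, Srp14, Srp54a and Srp72 became -0.03, 0.35, 0.08 and 0.28, while those of Rn7s1 and Srp68 were 0.95 and 0.41.

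The proteins that work with the particle were read from 5 lists of genes that are not members, holding the other targeting genes, the Sec61 translocon, signal peptidase, oligosaccharyltransferase and the routes that bypass the particle. In tumor, 13 of their 57 genes tested differed (limma adjusted p under 0.05), 8 being higher in the IL-6 KO host and 5 in the WT host, or 22.8% beside 19.8% of all genes. In stroma, 0 of the 57 differed by limma, and 6 passed an unadjusted p under 0.05. The median log2 fold change over the 57 was 0.07 in tumor and -0.02 in stroma. The GC and length correction moved the tumor calls over all genes from 53.7% to 72.6% higher, and those of the 57 to 10 higher and 2 lower, with 6 of the 13 still called. Bag6, Emc1, Emc10, H13, Sec11a, Spcs1 and Stt3a, described next, kept their direction but did not pass with it.

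Of the 4 other targeting genes, Rn7s6, Srp54b, Srp54c and Srpr, none differed in tumor by limma at an adjusted p under 0.05, nor at an unadjusted one. Of 17 translocon genes, 2 rose and 1 fell (17.6% beside 19.8% of all genes). Hyou1, a chaperone of the lumen, rose from 10978 ± 983 to 14582 ± 684, or 0.41 as log2 fold change (limma adjusted p = 0.00625). Hspa5, which encodes the lumenal chaperone BiP, rose by 0.34 on the log2 scale (limma adjusted p = 0.0379). Ssr1, a subunit of the translocon-associated complex, fell from 8590 ± 713 to 5904 ± 612, or -0.54 as log2 fold change (limma adjusted p = 0.00486). Among 6 genes of signal peptidase and signal peptide peptidase, the catalytic Sec11a (log2 fold change -0.51, limma adjusted p = 0.0127) and the small subunit Spcs1 (-0.56, limma adjusted p = 0.00721) fell and H13, signal peptide peptidase, rose (0.31, limma adjusted p = 0.0377). Sec11c had or -0.29 as log2 fold change (limma adjusted p = 0.0555).

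Of 12 oligosaccharyltransferase genes, 2 fell and none rose (16.7% beside 19.8% of all genes). They were the catalytic Stt3a (log2 fold change -0.42, limma adjusted p = 0.0219) and Krtcap2 (-0.49, limma adjusted p = 0.0145), while Rpn2 had a log2 difference of 0.59 ± 0.21 (SE, limma adjusted p = 0.0763). Of 18 genes for the alternative routes, 5 rose and none fell (27.8% beside 19.8% of all genes). Sgta, which takes up tail-anchored proteins, rose from 2127 ± 295 to 3336 ± 126, or 0.66 as log2 fold change (limma adjusted p = 0.00364). Its partner Bag6 rose by 0.30 (limma adjusted p = 0.0204) on the log2 scale. The other 3 were subunits of the ER membrane complex, Emc1 (0.33, limma adjusted p = 0.0432), Emc4 (0.49, limma adjusted p = 0.0116) and Emc10 (0.29, limma adjusted p = 0.0177).

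In stroma, the pathway genes with the smallest unadjusted p were Srp54b and Dnajc1, a co-chaperone of BiP. Dnajc1 was at 67.8 ± 22.7 in WT and 303 ± 74.2 in IL-6 KO stroma, or 2.19 as log2 fold change (limma adjusted p = 0.297). Sec62 (log2 fold change -0.98, limma adjusted p = 0.432) and Sec61a1, the channel itself (-0.83, limma adjusted p = 0.527), were lower in every IL-6 KO library, and neither passed the adjusted threshold.

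RNA polymerase III makes 7SL RNA, and its subunits and factors were read as a list of 26 genes. In tumor, 6 of the 26 differed by limma, 4 higher and 2 lower (23.1% beside 19.8% of all genes), with a median log2 fold change of 0.07. With GC and length corrected for, 6 were higher and none lower, and Polr3f and Tbp no longer passed. Gtf3c1, the largest subunit of TFIIIC, rose from 6975 ± 740 to 10143 ± 1177, or 0.54 as log2 fold change (limma adjusted p = 0.00827). Maf1, the repressor of RNA polymerase III, rose as well, by 0.55 on the log2 scale (limma adjusted p = 0.0168). The polymerase subunit Polr3e (log2 fold change 0.33, limma adjusted p = 0.0199) rose, whereas Polr3f (-0.53, limma adjusted p = 0.0165) and the TATA-binding protein gene Tbp (-0.44, limma adjusted p = 0.0403) fell. In stroma, 0 of the 26 differed by limma, and 4 passed an unadjusted p under 0.05, among them Maf1 (log2 fold change 1.80, limma adjusted p = 0.324).

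Other short structured RNAs, several of them also RNA polymerase III products, differed in sign among themselves in tumor. In tumor, 3 of the 18 gene models tested differed by limma (16.7% beside 19.8% of all genes), all of them higher in IL-6 KO mice, and the median log2 fold change was -0.003. With GC and length corrected for, 7 of 17 differed (41.2% beside 15.4% of all genes), all of them higher, and Rpph1 was not among them (limma adjusted p = 0.0611). Rpph1, the RNA of RNase P, was at 279002, 233185, 221007 and 240171 in WT and 329573, 360055, 345878 and 327225 in IL-6 KO tumor, with no overlap and a log2 difference of 0.49 ± 0.08 (SE, limma adjusted p = 0.00454). Snora73a, a small nucleolar RNA, had a log2 difference of 0.58 ± 0.14 (SE, limma adjusted p = 0.0169). Rmrp, the RNA of RNase MRP, has 2 overlapping gene models. The model with most of its counts had a log2 difference of 0.38 ± 0.09 (SE, limma adjusted p = 0.0168), and the sum of both overlapped between hosts, at 97748 to 119154 in WT and 116685 to 140162 in IL-6 KO libraries. Rn7sk, which sequesters the elongation factor P-TEFb, stood on the other side, at 453852, 515721, 455187 and 445845 in WT and 391758, 439968, 340385 and 401456 in IL-6 KO tumor. The groups did not overlap, and its log2 fold change of -0.25 (standard error 0.09) did not pass the threshold (limma adjusted p = 0.0727). The 2 RNAs side by side gave a ratio of Rn7s1 to Rn7sk of 3.29 ± 0.647 in WT and 7.33 ± 0.461 in IL-6 KO tumor, and the ratio of Rn7s1 to Rpph1 was 6.25 ± 0.438 and 8.44 ± 0.629.

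In stroma, 0 of the 16 structured RNA models tested differed by limma and 3 passed an unadjusted p under 0.05, Rpph1, Scarna2 and Scarna10, all higher in IL-6 KO libraries. Rpph1 was at 17508, 19936, 30921 and 27956 in WT and 30977, 52515, 40781 and 41707 in IL-6 KO stroma (log2 fold change 0.80, limma adjusted p = 0.518). The ratio of Rn7s1 to Rn7sk was 14.4, 26.9, 41.9 and 91.8 in WT and 102, 225, 123 and 61.2 in IL-6 KO stroma, so that library 4 again lay inside the WT range.

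**Figure D5:**
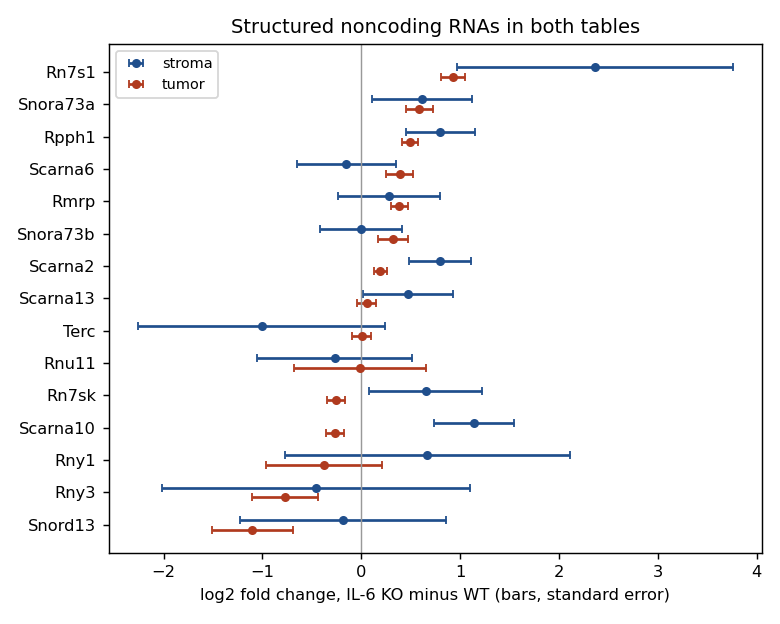
Log2 fold change of Rn7s1 and the 14 other structured noncoding RNAs that were tested in both compartments, IL-6 KO minus WT, with bars for the standard error and genes ordered by the value in tumor (where a gene has 2 models, the higher is shown). Rn7s1 is at the top with 0.92 in tumor and 2.36 in stroma, Rpph1 is above 0 in both compartments, and Rn7sk is at -0.25 in tumor and 0.65 in stroma.

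Ribosomal RNA and markers of other cells differed between the same libraries, and their part in the values of the particle was not tested. Of the 6 genes over ribosomal RNA, 1 differed in tumor by limma, mt-Rnr2, which fell by 1.20 on the log2 scale (limma adjusted p = 0.000961), and 0 in stroma, where 2 passed an unadjusted p under 0.05. Gm26917, a transcript model beside the ribosomal RNA locus on chromosome 17, held 20.3% to 26.1% of the counts in WT stroma and 6.63% to 8.70% in IL-6 KO stroma, and 13.1% to 21.2% and 20.02% to 22.7% in WT and IL-6 KO tumor. Its normalized count in stroma did not show such a difference, at 3038780 ± 1070004 in WT and 3059882 ± 588261 in IL-6 KO libraries, with overlap. The lower share there went with a larger sum of normalized counts in every IL-6 KO stroma library. Gm42418, at the same locus, held 13.9% in IL-6 KO tumor 2, against 2.96% to 4.56% in the other tumor libraries. Lars2, a protein-coding gene, held 6.66% in IL-6 KO stroma 4, against 0.307% to 1.89% in the other stroma libraries. In tumor, 9 of 10 neutrophil markers were called higher in IL-6 KO mice, with a summed normalized count of 4684 to 5231 in WT and 7543 to 18004 in IL-6 KO libraries, while 11 B-lymphoid markers summed to 143996 to 149000 and 156821 to 167293, with 2 higher and 1 lower. Erythroid markers summed to 5479 to 7745 and 5055 to 8245 in tumor, and to 190528 to 233320 (WT) and 87917 to 403743 (IL-6 KO) in stroma. Neutrophil markers summed to 7239 to 13520 and 6956 to 31428 in stroma, and plasma cell markers, of which none differed by limma in either compartment, to 259 to 659 and 685 to 1012. Of 10 mesenchymal and endothelial markers, 6 were found in the stroma table, where they summed to 334 to 601 in WT and 189 to 1691 in IL-6 KO libraries. Cxcl12, Lepr, Cdh5 and Emcn were not analysed here. No marker gene passed the adjusted threshold in stroma by limma, with 1 to 3 genes of each list at an unadjusted p under 0.05. In tumor, 1 erythroid marker of 8 (Car2) and 1 mesenchymal or endothelial marker of 7 (Col1a2) fell, or 12.5% and 14.3%, beside 19.8% of all genes.

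The genes most like Rn7s1 were sought by the root mean square difference of log2(normalized count + 1) profiles, centred within each table, over the 16 libraries and 7263 genes that were not members and had a mean of at least 50 in both tables. The closest were Preb (0.48), which encodes an activator of COPII coat assembly, Tapbp (0.55), the chaperone tapasin, Slc39a7 (0.55), a zinc transporter of the endoplasmic reticulum, Anks3 (0.55) and Coro1b (0.56), against a median of 1.34. Preb was at 389 ± 122 in WT and 1915 ± 1312 in IL-6 KO stroma and at 1983 ± 193 and 2551 ± 255 in tumor. A gene that did not vary at all would score 1.24, and the members compared with Rn7s1 in the same way were no nearer than that, with 1.26 for Srp68, 1.35 for Srp72, 1.53 for Srp9 and 1.97 for Srp54a. The genes closest to the mean of the 7 protein members were Cct5, a chaperonin subunit (0.15), Acp6 (0.17), Eif4ebp2, a translational repressor (0.18), Ttc9c (0.19) and Cstf2t (0.20), against a median of 0.59. These likenesses describe 16 libraries that share 2 normalizations, and carry no test. Where the closest genes lie relative to Il6 was not examined, so that a part of the deleted locus in their values was not tested.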

How the data were processed

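RNA of sorted mCherry+ and mCherry- marrow cells was depleted of ribosomal RNA and sequenced from one end with reads of 75 nucleotides. Per the submitters' processing notes and the study's methods, the authors quantified reads with Salmon 1.3.0 (mm10, corrected for GC and sequence bias) and scaled them with DESeq2 1.28.1, separately for stroma and tumor. The deposited signal values are these size-factor-normalized counts, summed to genes by the authors. They are not whole reads, and the depth of each library cannot be recovered from them. The study's methods give only an approximate common depth. No counting interval is given and no count model was used. The authors' comparison tables, which hold fold changes and p-values, were not used. GENCODE vM21 on GRCm38 matched 13338 of 13344 stroma and 15069 of 15080 tumor identifiers.

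IL-6 KO was compared with WT within each compartment by limma 3.58.1 (R 4.3.3, empirical Bayes with trend, two-sided) on log2(normalized count + 1), for genes with a mean above 10, with Benjamini-Hochberg adjustment over all genes and a threshold of 0.05. A fold change on this scale understates that of low genes. Libraries were grouped by their labels, which do not say that each came from a separate mouse, so that p-values measure only the spread between these libraries. Shares, ratios and likeness were computed with Python 3.11.15, pandas 2.3.3 and numpy 2.4.6, plots were drawn with matplotlib 3.10.9, and near copies (at least 97% identity over at least 75 nucleotides) were found with BLAST 2.17.0. The fits were tested on simulated data.

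Members and lists were chosen with earlier results of these data known. Genes named are the members, the other targeting genes, at most 6 genes a list and compartment, taken by lowest adjusted p, structured and ribosomal RNAs, genes with at least 5% of a library, and the 5 closest genes by profile. The marker genes Car2 and Col1a2 were named after their values were seen. Alternatives were other pseudocounts, no filter, quantile normalization, median centring, array weights, a replicate block, a loess correction for GC and length (span 0.3), other denominators and each library left out. Summing near copies was added after seeing the data. Il6 itself was not analysed here, so that the deletion could not be checked in the libraries. Some items, among them the sequences of the copies of 7SL RNA, are not reported here.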

Additional observations from a re-analysis of the deposited data

Results flagged for a closer look

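In 9 of 68 groups of 4 libraries, over 17 quantities, 1 library lay apart from the other 3 (gap to the nearest over the range above Dixon's 95% critical value). A chance rate of about 1 of 20 groups holds only for independent, normally distributed values. The counts were not transformed and several quantities share genes, so that no excess over chance is read from the 9 groups. IL-6 KO stroma 4 stood apart for Rn7s1, at 3707689 below the other libraries of its group, for its share of Rn7s1 (10.9% against 71.5% or more), for Srp9 (175 against 77.0 to 86.4) and for Rn7s6 (3567 against 458 to 702). This library also held 61.5% CT010467.1 and 6.66% Lars2, and the part of these 2 genes in the values above was not tested. IL-6 KO tumor 2 stood apart for Srp14 (2065 against 1797 to 1832) and Srprb (2024 against 2356 to 2411), and held 13.9% Gm42418. Rn7s6 was at 104379 in WT stroma 1, against 198 to 843 in the other WT stroma libraries. Srp54b was at 97.8 in WT stroma 3 and listed at 0 in the others. Rn7sk was at 515721 in WT tumor 2, against 445845 to 455187.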

How the results depend on the processing

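Of the members' log2 fold changes under the alternatives, 127 of 129 in stroma and 120 of 129 in tumor moved by less than 1 SD between libraries. This is a loose measure in stroma, where that SD was wide. The replicate block is among the alternatives counted, although it cannot change a fold change in groups of equal size. The sign turned in 9 settings for 4 members in stroma and in 6 for 3 in tumor. In stroma these were Srp14 without WT 1 (-0.02), Srp19 without WT 2 (0.10) or IL-6 KO 1 (0.29), Srp68 without IL-6 KO 4 (-0.07) and Srp72 in 5 settings (-0.41 to -0.03, the lowest without WT 4). In tumor they were Srp54a with the GC and length correction, with or without the block (0.08), Srp14 in 3 settings (-0.02 at the lowest) and Srp72 with quantile normalization (-0.001). The difference in log2 ratio of Rn7s1 to the protein genes ranged from 2.33 to 3.94 in stroma (3.94 without IL-6 KO stroma 4) and from 0.78 to 1.04 in tumor. The difference in share of Rn7s1 was 3.41 points in tumor with ribosomal RNA left out of the denominator, and 44.0 in stroma without IL-6 KO stroma 4 against 27.6 with it. With array weights, the counts of genes called were 4 in stroma over all genes, and in tumor 20 for the translocation lists (35.1%) and 6 for structured RNAs (33.3%), beside 4153 over all genes (28.7%). With the GC and length correction, 7 of 17 structured RNAs were called in tumor (41.2%), beside 2230 of all genes (15.4%). With each library left out in turn, the counts called ran from 1 to 3 over all genes and 0 to 1 for the translocation lists in stroma, and in tumor from 1569 to 3327 over all genes, 7 to 18 for the translocation lists and 2 to 5 for structured RNAs. The tumor counts over all genes were lowest without IL-6 KO 4 (1569), IL-6 KO 1 (1617), WT 3 (1722) and WT 2 (1791), and highest without IL-6 KO 2. The cause of these changes was not tested.

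Deviations from the group means of same-numbered WT and IL-6 KO libraries correlated between -0.03 and 0.13 in stroma and between -0.02 and -0.0003 in tumor. Tumor libraries were not compared with stroma libraries in this way. Weak correlations do not show that nothing was shared, and a common preparation was not tested. With the replicate block, 2230 genes were called in tumor against 2870 without it, and with the GC and length correction as well, 1797, with 6 structured RNAs.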

Other observations

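Among the protein members, Srp14, Srp19, Srp68 and Srp72 had no near copy among annotated transcripts, and the near copies of Srp9 (1 gene) and Srprb (2 genes) were in neither table. Promoter sequences of RefSeq, from 250 bases before to 50 after the start, were at hand for 5 of the 7 protein members. On either strand, TGACGT was found in 1 of the 5 (Srp54a) and in 8.37% of 27025 genes, TATA in 1 of the 5 (Srprb) and in 40.5%, and GGAG in 5 of the 5 and in 96.9%. These matches are descriptions of the letters in that window.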
